A study of Homo sapiens with 6 samples.

Results

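Genes of the machinery that recognises double-stranded RNA were read from the RNA-seq counts of K562 cells. They were taken from the table by name, with no threshold on a measured value, although the list was drawn up with earlier results of these data known: RIGI, IFIH1, DHX58, MAVS, EIF2AK2, ADAR, TLR3, ZBP1 and TBK1, which are 9 of the 61661 identifiers counted, each matched to 1 Ensembl gene. K562 is an established cell line, derived from a pleural effusion of a chronic myeloid leukemia that had entered blast phase. The shCTR cells were stable transductants with a lentivirus carrying a nonsense sequence, and the shMETTL3 cells carried a hairpin against METTL3 in the same kind of vector, and both were selected with puromycin. The shMETTL14 cells are labelled as METTL14 knockdown, and how they were made is not described in the sources used here. METTL3 and METTL14 form the core of the enzyme that writes N6-methyladenosine (m6A) on mRNA. There were 2 libraries per group, 6 in all, with 19292574 to 20115304 counted reads each. The libraries are not stated to come from separate transductions, so p-values measure only the spread between these libraries, and a single METTL3 hairpin stands for that knockdown.

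Long double-stranded RNA is a sign of viral infection, and cells hold several proteins that bind it. RIG-I (encoded by RIGI) and MDA5 (IFIH1) are cytoplasmic helicases that bind it and signal through the mitochondrial adaptor MAVS to the kinase TBK1, which activates the transcription factor IRF3 and so interferon genes. LGP2 (DHX58) is a related helicase without the signaling domain and modulates the other two. TLR3 senses double-stranded RNA in endosomes, PKR (EIF2AK2) stops translation by phosphorylating eIF2alpha, and ZBP1 binds Z-form nucleic acid and starts cell death. ADAR edits adenosine to inosine in double-stranded RNA and thereby keeps the cell's own transcripts from being sensed. Several of these genes are themselves induced by interferon. m6A on the cell's own transcripts is known to limit the double-stranded RNA they form. No double-stranded RNA and no protein was measured in these libraries.

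The hairpin that the shMETTL3 cells expressed is itself a short double-stranded RNA once transcribed. Its design is shown because it is the only agent sequence given here, with the 21-nucleotide stem and its reverse complement in capitals and the 6-nucleotide loop in lower case.
shMETTL3 hairpin: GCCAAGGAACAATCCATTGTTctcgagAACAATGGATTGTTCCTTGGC

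The promoters of the 9 genes were searched for the core of the interferon-stimulated response element, spelled GAAA, 2 bases of any kind and GAAA again, or TTTC, 2 bases and TTTC on the other strand. The RefSeq promoter table (GRCh38.p14, 250 bases before to 50 after each start) held 7 of the genes, all but DHX58 and ZBP1. The motif was found at IFIH1, EIF2AK2 and TLR3, and not in the windows of RIGI, MAVS, TBK1 or any of 3 starts of ADAR. Over all 35116 windows of 300 bases, 3.57% held it. A match is only a match of letters. The windows are shown 5′ to 3′ along the gene, with the motif in capitals, because genes with this element can respond to interferon. Each distance runs from the first base of the motif to the RefSeq start, so the motifs of EIF2AK2 and TLR3 extend past that start. By the GENCODE spans of the genes, the IFIH1 motif reaches into the gene and those of EIF2AK2 and TLR3 lie within it.
IFIH1, 21 bases before the start: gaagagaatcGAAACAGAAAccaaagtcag
EIF2AK2, 6 bases before the start: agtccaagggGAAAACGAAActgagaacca
TLR3, 4 bases before the start: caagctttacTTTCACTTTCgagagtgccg
IFIH1 held 2 more matches on the opposite strand, which overlap each other and begin 159 and 153 bases before the start. The IFIH1 window shown lies on chromosome 2 from 162318686 to 162318715, that of EIF2AK2 on chromosome 2 from 37156967 to 37156996, both on the minus strand, and that of TLR3 on chromosome 4 from 186069142 to 186069171 on the plus strand.

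The targets of the hairpins were read first. METTL3 had 1788 and 1728 reads in shCTR, 1031 and 938 in shMETTL3 and 1731 and 1498 in shMETTL14 cells. METTL14 had 656 and 655 reads in shCTR, 752 and 710 in shMETTL3 and 375 and 404 in shMETTL14 cells. Each target was therefore lowest in the cells labelled as its knockdown, with a log2 fold change from shCTR of -0.87 for METTL3 (SE 0.0783, adjusted p = 3.44e-07) and -0.76 for METTL14 (SE 0.0886, adjusted p = 1.40e-05, edgeR). The 8 erythroid markers of K562 were above 3 reads in every library, among them GATA1 with 4942 to 6032 reads. Their summed level was 1779 CPM in both shMETTL3 libraries, beside 1588 to 1609 in shCTR and 1595 to 1609 in shMETTL14 cells. In shMETTL3 cells the globin genes HBE1 (log2 fold change 0.96, adjusted p = 1.64e-08) and HBZ (1.02, adjusted p = 1.92e-04) and the erythroid factor KLF1 (0.36, adjusted p = 0.00221) were called higher. Of markers of other cells, CDH1 was at 0 throughout, while LYZ, ITGAM, EPCAM, KRT19 and COL1A1 were above 3 reads in every library. The summed level of 5 monocyte and granulocyte markers, nearly all of it LYZ, ran from 42.8 to 44.4 CPM in shCTR cells, from 16.1 to 17.4 in the METTL3 knockdown and from 60.5 to 66.1 in the METTL14 knockdown. That of 5 epithelial and fibroblast markers ran from 124 to 129, from 106 to 112 and from 138 to 144 CPM, and that of 5 lymphocyte markers from 5.87 to 6.27, from 8.81 to 9.47 and from 6.46 to 7.14 CPM. The part of these differences in the results below was not tested.

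Of the 9 genes, 7 passed the filter on low counts and were tested. MAVS was the only member past the threshold, and it rose in shMETTL3 cells. The threshold is an adjusted p under 0.05 over the 17686 genes tested, from edgeR's quasi-likelihood test in one fit over the 6 libraries. In shMETTL3 against shCTR cells, 1 of 7 was called, higher (14.3%), where 16.5% of all genes tested were called, 8.73% higher and 7.73% lower. In shMETTL14 against shCTR cells, edgeR called 0 of 7, where 6.69% of all genes were called (3.43% higher, 3.26% lower), 1 member had an unadjusted p under 0.05 and DESeq2 called 0. In shMETTL3 against shMETTL14 cells edgeR called 0, where 12.1% of all genes were called (6.65% higher, 5.49% lower), with 0 members at an unadjusted p under 0.05 and 0 by DESeq2. The share of called members was thus near or below that of all genes. The groups did not overlap for 2 of 7 members in shMETTL3 against shCTR cells (56% of all genes), for 4 of 7 in shMETTL14 against shCTR cells (48.9%) and for 5 of 7 between the knockdowns (56.7%). The median log2 fold change of the 7 was 0.01 in shMETTL3 and -0.10 in shMETTL14 cells, beside medians of 0.00 over all genes tested in each. Both knockdowns were compared with the same shCTR libraries. In bulk libraries, fewer cells that express a gene and less RNA per cell cannot be told apart.

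**Figure D1:**
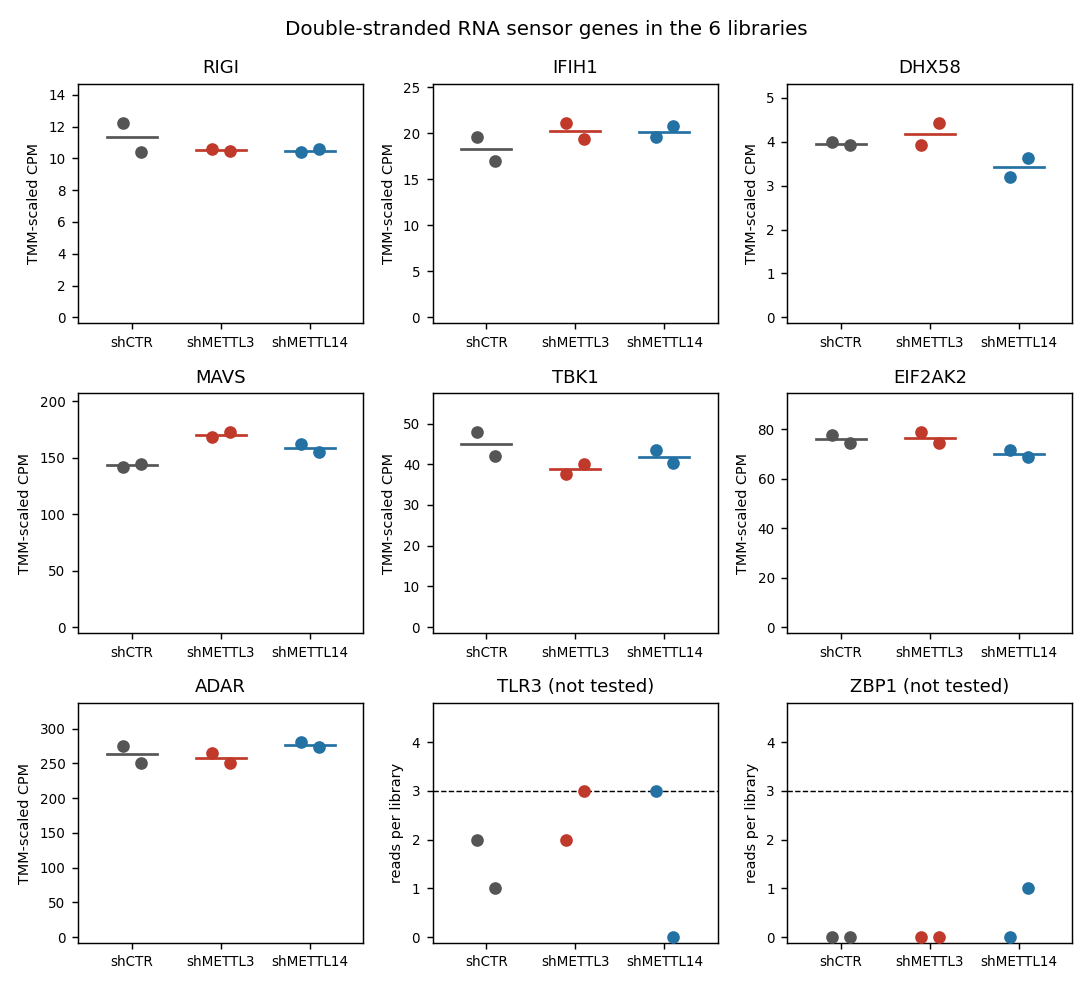
Each panel plots 1 sensor gene, with the 6 libraries as points and the mean of each group as a line, in CPM scaled by TMM on an axis from 0. TLR3 and ZBP1 are in reads per library with a dashed line at 3 reads. MAVS lies at 142 and 144 CPM in shCTR and at 168 and 172 CPM in shMETTL3 cells, and the panel of DHX58 shows shMETTL3 libraries at 3.92 and 4.43 CPM above shMETTL14 libraries at 3.21 and 3.62, a difference that did not pass the threshold.

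MAVS (ENSG00000088888) carries the signal of RIG-I and MDA5 from the outer mitochondrial membrane. It had 2807 and 2762 reads in shCTR, 3301 and 3458 in shMETTL3 and 3186 and 3030 in shMETTL14 cells. All 4 knockdown libraries were above both shCTR libraries, and the shMETTL3 libraries were above the shMETTL14 libraries. Its level went from 143 ± 1.57 CPM in shCTR to 170 ± 3.04 CPM in shMETTL3 cells (SD, n = 2 each), a log2 fold change of 0.25 (95% interval 0.12 to 0.38, SE 0.0609, adjusted p = 0.00806 from edgeR), which is a 1.19-fold rise. In shMETTL14 cells it was at 158 ± 5.36 CPM (SD, n = 2), a log2 difference of 0.15 from shCTR (0.02 to 0.27) with an adjusted p of 0.176, not past the threshold. The difference between the knockdowns was 0.10 on the log2 scale (-0.02 to 0.23, adjusted p = 0.311 in the same edgeR fit), so the rise was not shown to be greater in shMETTL3 cells.

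The call on MAVS depended on both shMETTL3 libraries. Without shMETTL3 replicate 1 the log2 fold change was 0.27 (adjusted p = 0.0505) and without replicate 2 it was 0.23 (adjusted p = 0.108), with the remaining library taken to vary like the other groups. With a smooth dependence on GC content and transcript length taken out of each library, it was 0.13 (adjusted p = 0.0806), and 0.13 with an adjusted p of 0.0467 when the replicate number was added as a block. The longest MAVS transcript has 11714 nucleotides with 52.1% GC, beside medians of 2983 nucleotides and 48.2% over the tested genes.

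MAVS lies on chromosome 20 from 3846799 to 3876123 on the plus strand (GRCh38, GENCODE release 29). Of the 15 other tested genes within 500 kb, looked up after the value of MAVS was seen, 2 passed the threshold in shMETTL3 cells, both higher. Of all genes tested, 16.5% passed there. In shMETTL14 cells 1 of the 15 passed, lower, beside 6.69% of all genes. The tested gene before MAVS, AP5S1, had a log2 fold change of 0.56 in shMETTL3 cells (adjusted p = 0.0615, edgeR). The gene after MAVS, PANK2, had 0.10 there (adjusted p = 0.460). Thus the gene on one side shared the direction with a larger value that did not pass, and the gene on the other side was close to 0. Over the 6 libraries, genes whose log2 CPM was most like that of MAVS included TECPR2 (Pearson's r 0.997) and DNAJC22 (0.997), out of 14867 genes compared. Since 176 genes had an r above 0.95 over these 6 points, which share their groups and controls, the likeness is a description only.

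TBK1 (ENSG00000183735), the kinase downstream of MAVS, had the opposite sign. It had 945 and 807 reads in shCTR, 740 and 805 in shMETTL3 and 855 and 788 in shMETTL14 cells. In CPM, both shMETTL3 libraries (37.7 and 40.1) were below both shCTR libraries (47.8 and 42.2), and the shMETTL14 libraries (43.5 and 40.2) overlapped the shCTR ones. The log2 difference was -0.21 in shMETTL3 cells (95% interval -0.38 to -0.04, adjusted p = 0.0874) and -0.10 in shMETTL14 cells (-0.27 to 0.07, adjusted p = 0.507), neither past the threshold in edgeR. The value turned on the shCTR libraries: without shCTR replicate 2 it was -0.30 (adjusted p = 0.0149) and without shCTR replicate 1 it was -0.12 (adjusted p = 0.418). TBK1 spans 64451880 to 64502108 on the plus strand of chromosome 12.

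None of the 3 helicases passed the threshold in any of the 3 comparisons, in edgeR or DESeq2. RIGI (ENSG00000107201, also named DDX58) had 242 and 199 reads in shCTR, 208 and 210 in shMETTL3 and 204 and 207 in shMETTL14 cells. The knockdown libraries lay close together, near the lower shCTR library. Its log2 difference was -0.11 in shMETTL3 (95% interval -0.37 to 0.16, adjusted p = 0.621) and -0.11 in shMETTL14 cells (-0.38 to 0.15, adjusted p = 0.670, edgeR).

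IFIH1 (ENSG00000115267), whose product MDA5 binds long double-stranded RNA, had 387 and 325 reads in shCTR, 416 and 390 in shMETTL3 and 385 and 407 in shMETTL14 cells. Its log2 difference was 0.15 in shMETTL3 (-0.07 to 0.37, adjusted p = 0.354) and 0.14 in shMETTL14 cells (-0.08 to 0.36, adjusted p = 0.480, edgeR). The intervals leave room for a 1.29-fold rise and for none. After scaling, 1 of 2 shMETTL3 libraries lay above both shCTR libraries, and in shMETTL14 cells 2 of 2 did, by a narrow margin (19.6 and 20.8 against 19.6 and 17.0 CPM).

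DHX58 (ENSG00000108771) had the fewest reads of the tested members, 79 and 75 in shCTR, 77 and 89 in shMETTL3 and 63 and 71 in shMETTL14 cells. Its log2 difference was 0.08 in shMETTL3 (-0.32 to 0.48, adjusted p = 0.828) and -0.21 in shMETTL14 cells (-0.63 to 0.20, adjusted p = 0.594, edgeR). In shMETTL3 cells its interval ran from 0.800-fold to 1.39-fold, and a difference within it was not detectable at this depth. Its shMETTL14 libraries lay below both shCTR libraries. RIGI lies on chromosome 9 (32455705 to 32526324), IFIH1 on chromosome 2 (162267079 to 162318703) and DHX58 on chromosome 17 (42101404 to 42112733), all on the minus strand.

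**Figure D2:**
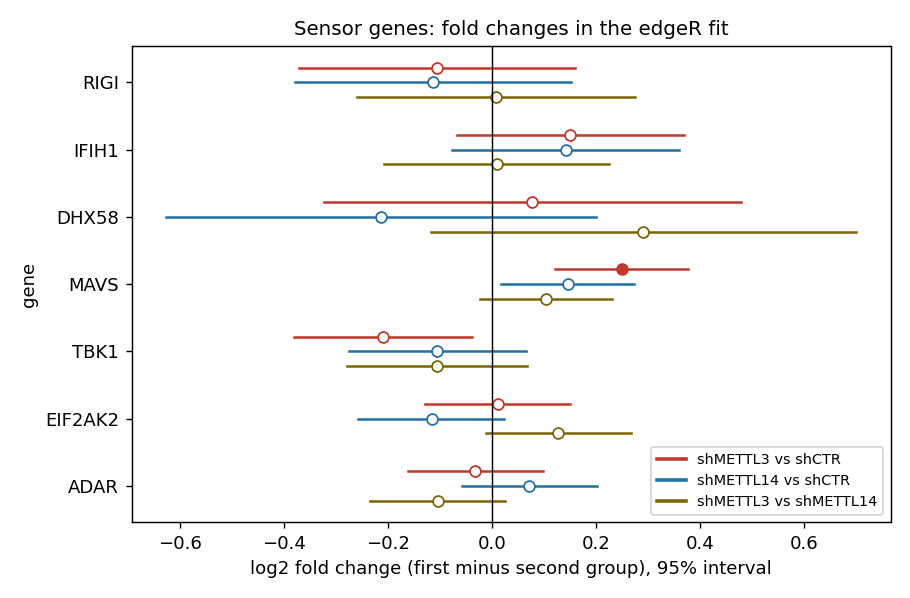
The log2 fold change of the 7 tested sensor genes is plotted for the 3 comparisons, with bars for the 95% interval and filled points for an adjusted p under 0.05. The filled point is MAVS in shMETTL3 against shCTR cells (0.25), the bars of TBK1 in shMETTL3 cells (-0.38 to -0.04) and of MAVS in shMETTL14 cells (0.02 to 0.27) also leave out 0 without passing after adjustment, and the bars of DHX58 are the widest.

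The effector PKR and the editor ADAR were among the members with the most reads, and neither passed the threshold. EIF2AK2 (ENSG00000055332), which encodes PKR, had 1533 and 1429 reads in shCTR, 1548 and 1497 in shMETTL3 and 1406 and 1350 in shMETTL14 cells. Its level was 76.1 ± 2.08 CPM in shCTR cells, 76.7 ± 2.97 with METTL3 knockdown and 70.2 ± 1.90 with METTL14 knockdown (SD, n = 2 each). The shMETTL3 and shCTR libraries interleaved, and both shMETTL14 libraries lay below all others. The log2 difference was 0.01 in shMETTL3 cells (-0.13 to 0.15, adjusted p = 0.935), with an upper bound of 1.11-fold, and -0.12 in shMETTL14 cells (-0.26 to 0.02, adjusted p = 0.343, edgeR). EIF2AK2 (chromosome 2, 37099210 to 37157065, minus strand) overlaps GPATCH11 on the other strand, and since the sources used here do not say that counting used strand, reads of the pair cannot be told apart.

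ADAR (ENSG00000160710) had 5447 and 4814 reads in shCTR, 5207 and 5027 in shMETTL3 and 5513 and 5362 in shMETTL14 cells. Its level was 264 ± 17.1, 258 ± 10.3 and 277 ± 4.99 CPM in shCTR, shMETTL3 and shMETTL14 cells (SD, n = 2 each). The shMETTL3 and shCTR groups overlapped. The log2 difference was -0.03 in shMETTL3 (-0.16 to 0.10, adjusted p = 0.779) and 0.07 in shMETTL14 cells (-0.06 to 0.20, adjusted p = 0.559, edgeR). The 2 knockdowns differed by -0.10 (shMETTL3 minus shMETTL14, -0.23 to 0.03, adjusted p = 0.323), and by -0.15 with an adjusted p of 0.0424 with the dependence on GC and length taken out. The gene count pools the interferon-inducible long form and the constitutive short form of ADAR, which start at different promoters and were not separated. ADAR spans 154582057 to 154628013 on the minus strand of chromosome 1.

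TLR3 and ZBP1 were at or under the floor of 3 reads in every library and were not tested. TLR3 (ENSG00000164342, chromosome 4) had 2 and 1 reads in shCTR, 2 and 3 in shMETTL3 and 3 and 0 in shMETTL14 cells. ZBP1 (ENSG00000124256, chromosome 20) had 1 read in shMETTL14 replicate 2 and 0 in the other 5 libraries. A count of 0 allows up to 3 reads, which is 0.149 to 0.156 CPM in these libraries, and it covers counting error only. These counts are too few for a comparison at this depth.

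Levels of the members were compared with each other per kb of the longest GENCODE transcript. ADAR was the most abundant with a mean of 37.4 CPM per kb over the 6 libraries (35.2 to 39.5). MAVS (13.4) and TBK1 (12.9) followed, and their ranges overlapped. Their order turned with the group: MAVS was at 12.2 and TBK1 at 13.8 CPM per kb in shCTR cells, and at 14.5 and 11.9 in shMETTL3 cells. EIF2AK2 (7.40), IFIH1 (5.45), RIGI (2.48) and DHX58 (1.47) came next in that order, each separate from its neighbours in its range over libraries. The editor that masks double-stranded RNA thus had the highest transcript level of the members, and the helicases that sense it were in the lower part of the order. The scale depends on the transcript taken for the length, which is long for MAVS (11714 nucleotides) and EIF2AK2 (10042).

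**Figure D3:**
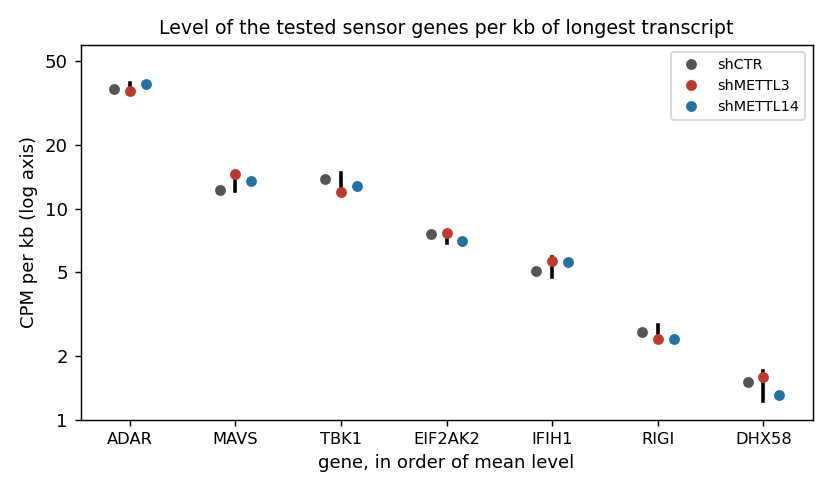
The level of the 7 tested sensor genes is plotted in CPM per kb of longest transcript on a log axis, with points for the group means and a bar from the lowest to the highest of the 6 libraries. ADAR lies highest at 35.2 to 39.5, and MAVS and TBK1 are the neighbours whose bars overlap.

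The longest transcripts of the members were also searched for GGACT, a frequent form of the m6A consensus, as a description of the sequence and not of methylation. The density was highest in IFIH1 (1.67 per kb) and DHX58 (1.53), and lowest in TBK1 (0.307), beside a median of 0.909 per kb and quartiles of 0.493 and 1.4 over 16662 tested genes with a transcript. MAVS, the member that rose, held 0.683 per kb. The values of the other 5 ran from 0.498 in EIF2AK2 to 0.984 in ADAR.

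The genes around the sensors were read from lists of general knowledge, also written with earlier results of these data known, so no count over them is independent evidence. Among 17 adaptors, kinases and transcription factors downstream, all tested, METTL3 knockdown had 3 calls higher and 1 lower (23.5% called, beside 16.5% of all genes). IKBKE, a kinase related to TBK1, went from 34 and 40 reads in shCTR to 65 and 69 in shMETTL3 libraries (log2 fold change 0.82, adjusted p = 0.0198). IRF7, an interferon-inducible transcription factor that amplifies interferon, had 104 and 91 against 151 and 153 reads (0.61, adjusted p = 0.0104). IRF3, the factor that TBK1 activates, rose by 0.29 (adjusted p = 0.0176) and IKBKB, a kinase of the NF-kappaB branch, fell by 0.25 on the log2 scale (adjusted p = 0.00948). The list's median was 0.04. The count of 4 fell to 2 in DESeq2, to 2 without shCTR replicate 1, to 1 without shMETTL3 replicate 1 and to 0 without shMETTL3 replicate 2, and it was 6 without shCTR replicate 2. In shMETTL14 cells edgeR called 0 of the 17, with 2 at an unadjusted p under 0.05 and 0 by DESeq2. That count was 1 with library size alone and with the replicate number as a block, alone or with GC and length taken out. It also rose without shCTR replicate 2.

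Of 17 regulators of the RIG-I-like receptors, 15 were tested, and in shMETTL3 cells 1 was called higher and 4 lower (33.3%, beside 16.5% of all genes). NLRC5, an interferon-inducible regulator also known for MHC class I genes, went from 33 and 41 reads in shCTR to 115 and 126 in shMETTL3 libraries (log2 fold change 1.67, SE 0.228, adjusted p = 5.03e-05). TRIM25, a ubiquitin ligase that promotes RIG-I signaling, went from 150 ± 8.02 to 120 ± 4.83 CPM (SD, n = 2 each), a log2 fold change of -0.32 (adjusted p = 0.00171). MEX3C, another ubiquitin ligase for RIG-I, and PCBP2, which promotes degradation of MAVS, had log2 fold changes of -0.42 (adjusted p = 0.00445) and -0.32 (adjusted p = 0.00171). The count of 5 was 4 in DESeq2. With a library left out, it rose without shCTR replicate 2 and fell most without shMETTL3 replicate 2. In shMETTL14 cells 1 was called (6.67%, beside 6.69% of all genes), RNF125 (log2 fold change -0.41, adjusted p = 0.0439), and DESeq2 called 0, as did edgeR without any 1 of the libraries except shCTR replicate 2, with which left out the count was 1.

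Of 25 other proteins that bind, edit or cut double-stranded RNA, 20 were tested, and in shMETTL3 cells 1 was called higher and 1 lower (10%, beside 16.5% of all genes). OAS3, an interferon-inducible enzyme that makes the activator of RNase L when it binds double-stranded RNA, had 264 and 276 reads in shCTR, 504 and 491 in shMETTL3 and 275 and 252 in shMETTL14 cells. The shMETTL3 libraries stood apart from the other 4, with a log2 fold change of 0.85 from shCTR (SE 0.103, adjusted p = 1.12e-05). Its relatives OAS1, OAS2 and OASL had 0 to 2 reads in every library. DHX15 had a log2 fold change of -0.26 (adjusted p = 0.0183). The count of 2 was 5 without shCTR replicate 2 and 1 without shMETTL3 replicate 2, and with GC and length taken out it was 3, or 6 with the block added. In shMETTL14 cells edgeR called 0, with 1 at an unadjusted p under 0.05, and DESeq2 called 0.

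In the eIF2alpha branch, where PKR acts, 16 of 16 genes were tested, and 3 were called lower in shMETTL3 and 2 lower in shMETTL14 cells, with 0 higher in either. These are 18.8% and 12.5% of the list, beside 16.5% and 6.69% of all genes. EIF2B3, a subunit of the exchange factor for eIF2, had log2 fold changes of -0.36 (adjusted p = 7.48e-04) and -0.27 (adjusted p = 0.0126) in shMETTL3 and shMETTL14 cells. EIF2S3, a subunit of eIF2, had -0.21 (adjusted p = 0.00922) and -0.20 (adjusted p = 0.0317). EIF2AK1, the heme-regulated eIF2alpha kinase, had -0.20 in shMETTL3 cells (adjusted p = 0.0198). ATF4 and DDIT3, genes of this branch named after their values were seen, were at -0.08 (adjusted p = 0.341) and 0.09 (adjusted p = 0.510) in shMETTL3 cells. In shMETTL14 cells they were at -0.07 (adjusted p = 0.494) and -0.20 (adjusted p = 0.173, edgeR). These are mRNA levels, and neither ATF4 protein nor phosphorylation of eIF2alpha was measured. Between the knockdowns DDIT3 was higher in shMETTL3 cells by 0.28 (adjusted p = 0.0261), and ATF4 was at -0.01 (adjusted p = 0.947). The other genes of the list called there were PPP1R15A (0.19, adjusted p = 0.0485) and EIF2AK1 (-0.20, adjusted p = 0.0227, edgeR). The counts were 1 without either shMETTL3 library and, for shMETTL14 cells, 1 without shCTR replicate 1 or either shMETTL3 library and 0 without either shMETTL14 library. With GC and length taken out they were 6 (1 higher, 5 lower) and 4 (1 higher, 3 lower).

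Among the 6 partners of ZBP1 in cell death, RIPK3 had 0 to 3 reads, and 5 were tested, with a median of 0.24 in each knockdown and 20% and 40% called, beside 16.5% and 6.69% of all genes. CFLAR, an inhibitor of caspase-8, was called higher in both knockdowns, with log2 fold changes of 0.25 (adjusted p = 0.00815) and 0.24 (adjusted p = 0.0233), and CASP8 was called higher in shMETTL14 cells (0.44, adjusted p = 0.00833). These calls were lost in shMETTL3 cells without either shMETTL3 library and in shMETTL14 cells without either shMETTL14 library. In shMETTL14 cells the count of 2 was 1 without shCTR replicate 1 or either shMETTL3 library, and 3 without shCTR replicate 2.

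The output of the pathway was read at interferon genes and at response genes. The latter are listed as transcribed on sensor activation or interferon, and CXCL8, TNFAIP3 and NFKBIA are among them. Of 14 interferon ligands, receptors and receptor kinases, 9 were at or under 2 reads in every library, among them IFNB1, which had 0 reads in all 6. Whether this line carries the ligand genes intact was not tested. Their low counts therefore do not tell how intact ligand genes would respond to the knockdowns. The 5 tested genes of receptors and their kinases had 0 calls by edgeR in either knockdown, with 1 at an unadjusted p under 0.05 in each and 0 by DESeq2, and 1 in each with GC and length taken out. With the block added as well, the count in shMETTL3 cells was 3 (2 higher, 1 lower). Of 32 response genes, 25 were tested, and 9 rose and 0 fell past the threshold in shMETTL3 cells (36%, beside 16.5% of all genes), with a median log2 fold change of 0.53. IFIT2 had 48 and 44 reads in shCTR, 212 and 240 in shMETTL3 and 56 and 44 in shMETTL14 cells (log2 fold change 2.26 in shMETTL3 cells, SE 0.183, adjusted p = 8.74e-08). IFIT3 rose by 1.33 (adjusted p = 7.35e-05) and IFI6 by 1.13 (adjusted p = 0.00152) on the log2 scale. ISG15 and STAT2, named after their values were seen, were at -0.01 and 0.03 with adjusted p of 0.955 and 0.782 in edgeR. MX1, IFI44 and IFI44L had 0 or 1 read in every library. The count of 9 was 6 to 9 with any 1 library left out, and 6 in DESeq2.

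In shMETTL14 cells 5 response genes were called higher and 1 lower (24%, beside 6.69% of all genes), with a median of 0.08. RSAD2 (log2 fold change 1.21, adjusted p = 0.0141), SAMD9L (0.91, adjusted p = 0.0247) and SAMD9 (0.71, adjusted p = 0.00356) were the 3 largest rises under the naming rule, and IFIT1 had -0.98 (adjusted p = 0.0269, 67 and 45 against 31 and 26 reads). In shMETTL3 cells, with 105 and 95 reads, IFIT1 had the opposite sign and was called higher (0.81, adjusted p = 0.0144), and RSAD2 was called higher too (1.00, adjusted p = 0.0251). DESeq2 called 2, the fit without a filter on low counts called 3, and edgeR called 0 without shMETTL14 replicate 1 and 1 without replicate 2. The members induced by interferon, IFIH1, RIGI, DHX58 and EIF2AK2, did not pass the threshold in either knockdown, with log2 differences of -0.11 to 0.15 in shMETTL3 cells, where IFIT2, IFIT3, OAS3 and NLRC5 were called higher.

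**Figure D4:**
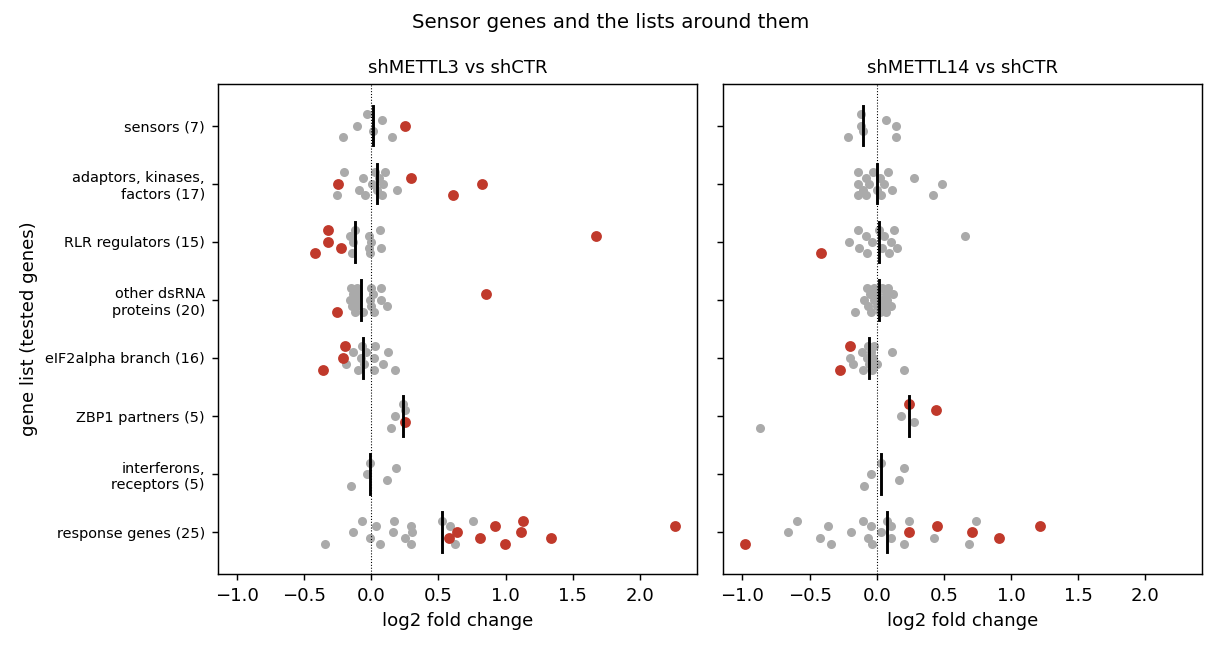
Each point is a tested gene, placed by its log2 fold change from shCTR in shMETTL3 (left) and shMETTL14 cells (right), in rows for the sensors and the 7 lists around them. Red points have an adjusted p under 0.05, grey points do not, the black line is the median of the list, and heights within a row only separate the points. The sensors lie between -0.21 and 0.25 in shMETTL3 cells, while the response genes reach 2.26.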

How the data were processed

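Poly(A) RNA of 6 K562 libraries, 2 per group, was sequenced by the authors (HiSeq). They deposited raw counts, whole reads for each gene; per the submitters' processing notes, HTSeq 0.6.1 and hg38 were used, and the aligner, annotation and use of strand are not given in the sources used here. All 9 members were matched by Ensembl ID to a table of gene names. Identifiers outside the annotation held 0.635% to 0.703% of reads and stayed in the totals. With edgeR 4.0.16 in R 4.3.3, 17686 genes passed filterByExpr at a minimum count of 10, libraries were scaled by TMM and the quasi-likelihood test was fitted over the 3 groups, with Benjamini-Hochberg adjustment over all genes and a threshold of 0.05. CPM are scaled by TMM, which takes most genes as unchanged. Intervals are 95% intervals of the fitted coefficient. Positions and transcripts are those of GENCODE release 29. Steps were tested on simulated data with planted changes larger than those of the members. Power for changes of the members' size was not tested.

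The members and lists were chosen with earlier results of these data known. Named were all members, both targets, up to 3 called genes per list, direction and knockdown by size (at least 10 reads, no overlap), and the 3 genes most like a called member. A gene that meets this rule is not reported here. Alternatives were DESeq2 1.42.0, 2 other scalings, no filter, only the groups compared, the replicate number as a block, a smooth term for GC content and length taken out per library (mgcv 1.9.3), alone and with the block, and each library left out. PCR copies were not told apart, so depth limits cover counting error only. Within each group the 2 libraries differed beyond sampling noise: the chi-square statistic averaged 2.71 to 5.88 per gene, where sampling alone gives about 1.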

Additional observations from a re-analysis of the deposited data

Results flagged for a closer look

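The effects of METTL3 and METTL14 knockdown, each against the same shCTR libraries, were compared directly in the test of shMETTL3 against shMETTL14. Of the 7 tested sensor genes, 0 differed between the knockdowns in that edgeR test, where 12.1% of all genes were called. Of the other 25 named genes 11 did, but these were named as targets or because they were called against shCTR in 1 knockdown, so their number is no contrast to the sensors. The 2 targets were among them, with METTL3 at -0.73 (adjusted p = 2.56e-06) and METTL14 at 0.89 (adjusted p = 7.81e-07), as log2 values of shMETTL3 minus shMETTL14. Of the 25 tested response genes 8 were called higher in shMETTL3 cells and 0 lower, and SAMD9, SAMD9L and RSAD2 had values of -0.40, -0.33 and -0.22 without passing. Of the named interferon-responsive genes, those higher in shMETTL3 cells past the threshold were IFIT2, by 2.16 (adjusted p = 1.10e-07), IFIT1 by 1.79 (adjusted p = 3.66e-05), IFIT3 by 1.09 (adjusted p = 4.10e-04), NLRC5 by 1.01 (adjusted p = 0.00290), OAS3 by 0.90 (adjusted p = 5.59e-06) and IFI6 by 0.70 (adjusted p = 0.0334). RNF125, a ubiquitin ligase of the RIG-I pathway, was higher by 0.40 (adjusted p = 0.0331), while TRIM25 was at -0.38 (adjusted p = 4.59e-04) and EIF2AK1 at -0.20 (adjusted p = 0.0227).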

How the results depend on the processing

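Each of the log2 fold changes of the 7 tested sensor genes was recomputed under 14 alternatives. Of these values, 275 kept direction and side of the threshold, 3 lost the call, 3 gained one and 13 changed sign, none of the last past the threshold. In shMETTL3 against shCTR cells, DHX58 was at -0.017 with GC and length taken out and at -0.019 with the block added, and ADAR was at 0.023 with library size alone. With 1 library left out, RIGI ran from -0.221 to 0.016, DHX58 from -0.012 to 0.165, EIF2AK2 from -0.028 to 0.052 and ADAR from -0.100 to 0.033 there. RIGI ran from -0.227 to 0.010 in shMETTL14 against shCTR cells, and between the knockdowns RIGI ran from -0.006 to 0.021 and IFIH1 from -0.052 to 0.074. MAVS ran from 0.13 to 0.31 in shMETTL3 cells over all settings. The number of members called there was 0 with GC and length taken out and 0 to 2 with a library left out. Between the knockdowns it was 1 (ADAR, lower) with GC and length taken out, with and without the block, and in shMETTL14 against shCTR cells it was 0 under all 14. The cause was not tested.

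Over all genes, the 2912, 1184 and 2148 calls became 1881, 763 and 1327 in DESeq2. With a library left out, which leaves fewer libraries, they ran from 1102 to 3569, from 341 to 1913 and from 942 to 2953, lowest without shMETTL3 replicate 2 for the first and without shMETTL14 replicate 1 for the others. The 1184 became 766 without the filter, and with GC and length taken out and the block added the last 2 counts became 2165 and 3603. With library size alone the split in shMETTL3 against shCTR cells was 2158 higher and 858 lower, beside 1544 and 1368 with TMM, and the splits of the other comparisons were 743 and 443 beside 607 and 577, and 1399 and 754 beside 1177 and 971.

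The replicate numbers were not shown to pair the libraries: deviations of same-numbered libraries from their group means correlated, over 14868 genes, at 0.110, -0.0363 and -0.0287. With the replicate number as a block, 3264, 1459 and 2478 genes were called, and 1, 0 and 0 members. Where a library is left out, the lone library of its group is taken to vary like the others. DHX58, with 63 to 89 reads a library, limits what can be said of the LGP2 gene, and TLR3 and ZBP1 were at or below 3 reads.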
